A study of Mus musculus with 4 samples.

Results

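The Krüppel-like factor (KLF) family was followed here across the cell types of the mouse kidney cortex, through the 10 gene rows named Klf2, Klf3, Klf4, Klf5, Klf6, Klf7, Klf9, Klf10, Klf13 and Klf15, out of 19609 named gene rows in a single nucleus RNA sequencing (snRNA-seq) table. The genes were chosen as named members of the family, by a rule that uses no value, with earlier results of these data known. Nuclei came from the kidney cortex of 4 male mice on a mixed strain background, with 1 mouse per condition. The control mouse (genotype TRE-hKLF6, treatment none) carried a tetracycline-responsive human KLF6 transgene without a driver. The hKLF6OE mouse (genotype CAG-rtTA,TRE-hKLF6, treatment none) carried in addition the reverse tetracycline transactivator under the CMV-chicken beta-actin (CAG) promoter, which is active in most cell types, so that overexpression was not limited to the tubule. The remaining mice, control with AAI and hKLF6OE with AAI, had the same genotypes and received 1 injection of aristolochic acid I (AAI), a plant toxin that forms DNA adducts and injures the proximal tubule, and were killed the next day. Per the study's methods a doxycycline diet, which switches the transgene on where the transactivator is present, came before the AAI injection in both genotypes. The ages of these mice are not given in the sources used here.

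KLFs are transcription factors that bind GC-rich and CACCC elements through C-terminal zinc fingers, and they differ mainly in the N-terminal part, which recruits co-activators or co-repressors. In the kidney, KLF2 and KLF4 are best known from endothelial cells exposed to flow, KLF5 from the collecting duct, KLF6 as an injury-induced gene of the tubule, and KLF9 and KLF15 as genes induced by glucocorticoids. Below, the members are ordered by the co-factors they are known for: Klf2, Klf4, Klf5, Klf6 and Klf7, which act mainly as activators; Klf3, which recruits the co-repressor CtBP; Klf9, Klf10 and Klf13, which recruit Sin3; and Klf15, which stands apart from these groups.

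Each value is a level in counts per 10000, that is, each nucleus scaled to a total of 10000 and then averaged within 1 of 23 clusters of 1 mouse, which gives 92 values per gene. Neither the number of nuclei nor the depth behind a value is in the table, so no counting interval can be given, and with 1 mouse per condition there is no spread between mice of a condition and no test. Differences are those of log2(level + 1), which understates the change of low genes. A gene passed where the larger of the values compared was at least 0.5, and it was counted as higher or lower where the difference was at least 0.2 on this log2 scale, in the same direction in both mice or both genotypes where 2 pairs could be formed. A gene under the minimum on 1 side of a comparison can pass only through the other side, which fixes the direction of its difference. Levels of different members are not compared with each other, since the table is not scaled by gene length.

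The 23 clusters carry the study's names, matched to the cluster numbers as set out with the processing: 5 normal proximal tubule clusters (PT-S1-S2-1, PT-S1-S2-2, PT-S3-1, PT-S3-2 and PT-S3-3), 2 injured ones (InjuredPT-A and InjuredPT-B), and 16 others, among them endothelial cells (EC), mesangial cells (MC), the descending (LH-DL) and ascending (LH-AL) limb of Henle's loop, the distal convoluted tubule (DCT), the connecting tubule (CNT), collecting duct principal cells (CD/PC) and intercalated cells (IC). Summed marker levels, as means of 4 mice, were highest in the cluster so named for 13 of 14 marker lists, the other being lymphocyte markers, for which no cluster is named. The Macrophage cluster also held endothelial markers (21.6, against 77.5 in EC-2), EC-1 held only 14.4 of them beside 43.2 of thick ascending limb markers, and LH-DL held podocyte markers (13.7, 21.7 and 18.8 in the control, control with AAI and hKLF6OE with AAI mice, and 1.77 in the hKLF6OE mouse). Between 15.1% and 63.4% of gene rows were at 0 in a column, with the most in Macrophage, LH-AL-3, LH-DL and in InjuredPT-A of the control mouse without AAI, where 62.6% were at 0. In InjuredPT-B 51.3% and 55.7% were at 0 without AAI, in control and hKLF6OE, against 27.0% and 29.7% with AAI. The study found nearly all nuclei of both injured clusters in the AAI-treated mice. How far the mixing of markers sets the members' levels was not tested.

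To set the genes beside their regulatory sequence, the promoters of 4 members that the results turn on are shown: Klf6 and Klf3, which were higher in both injured clusters, and Klf9 and Klf15, which were highest in proximal tubule clusters. The sequences run 5′ to 3′ on the gene's strand and are from the RefSeq promoter table on GRCm38.p6, ending just before the transcribed region of the GENCODE annotation. Capitals mark matches on either strand. The motifs searched were the GC box written GGGCGG, the KLF element CACCC and an AP-1-like pattern written TGANTCA, where N is any base. The others were the cyclic AMP element (CRE) written TGACGTCA, the TATA box written TATAAA and the E-box with the letters CACGTG. The CCAAT motif and, by name, the CArG box were also searched.
Klf6 (chr13:5861239-5861481, plus strand): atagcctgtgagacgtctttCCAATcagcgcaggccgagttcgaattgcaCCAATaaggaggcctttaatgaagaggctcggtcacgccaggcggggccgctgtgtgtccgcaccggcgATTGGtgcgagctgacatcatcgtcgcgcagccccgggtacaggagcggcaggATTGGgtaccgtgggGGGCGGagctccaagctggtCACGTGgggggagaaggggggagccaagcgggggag
Klf3 (chr5:64803271-64803387, plus strand): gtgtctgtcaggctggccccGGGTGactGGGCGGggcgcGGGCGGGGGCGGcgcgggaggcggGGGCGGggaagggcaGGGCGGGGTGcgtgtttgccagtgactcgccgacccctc
Klf9 (chr19:23140976-23141225, plus strand): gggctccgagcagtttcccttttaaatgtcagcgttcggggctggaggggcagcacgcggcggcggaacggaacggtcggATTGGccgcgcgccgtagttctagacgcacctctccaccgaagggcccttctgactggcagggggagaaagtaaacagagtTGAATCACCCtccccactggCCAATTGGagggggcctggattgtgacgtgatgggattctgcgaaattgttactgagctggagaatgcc
Klf15 (chr6:90462326-90462575, plus strand): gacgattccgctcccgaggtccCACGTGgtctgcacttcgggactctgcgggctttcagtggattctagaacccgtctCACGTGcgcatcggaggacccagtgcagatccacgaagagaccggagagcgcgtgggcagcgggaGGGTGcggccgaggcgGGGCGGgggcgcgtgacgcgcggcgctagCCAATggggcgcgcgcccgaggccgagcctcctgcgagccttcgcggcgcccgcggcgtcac

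Of the 10 members, 8 had an entry in the promoter table, which holds 32851 windows of 250 bases before a start. A GC box was found in 7 of the 8, against 32.7% of all windows, and the CACCC motif in 6, against 52.0%. Klf9 was the exception without a GC box, and it was also the only one with a match to the AP-1-like pattern TGANTCA, against 6.75% of all windows. That match reads TGAATCA, with an A where the AP-1 site has C or G, and its last bases overlap a CACCC motif. An E-box stood in the promoters of Klf4, Klf6 and Klf15, against 6.02% of windows, with 2 in Klf15. The CCAAT motif occurred 4 times in Klf6, 3 times in Klf9, 2 times in Klf13 and 1 time in Klf15, and was present in 33.8% of all windows. None of the 8 held the CRE (1.55% of windows), the CArG box (1.47%) or the TATA box (12.4%) in these letters. Their windows were GC-rich, with 59.2% (Klf7) to 78.4% (Klf3) GC against a median of 52.4%. All these counts use the full RefSeq windows. The Klf7 window (chr1:64121390-64121639) lies inside the gene as annotated by GENCODE. Those of Klf3, Klf2 and Klf6 run past its start, with 117, 221 and 243 of their 250 bases before it. A match describes letters only and does not show binding.

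The genes lie on 10 different chromosomes of GRCm38 and all are protein coding. Klf6 spans chr13:5861482-5870394 (8.91 kb), Klf3 chr5:64803388-64832901 (29.5 kb), Klf9 chr19:23141226-23168134 (26.9 kb) and Klf15 chr6:90462576-90475238 (12.7 kb). Klf2 (chr8:72319033-72321656), Klf4 (chr4:55527143-55532466), Klf5 (chr14:99298691-99315036) and Klf10 (chr15:38291463-38300706) are also shorter than 30 kb, and Klf13 (chr7:63886351-63938915, 52.6 kb) and Klf7 (chr1:64029447-64122282, 92.8 kb) are longer. Gene span matters for nuclear RNA counted with introns, and the injured cluster InjuredPT-A differed by span over all genes, as given below.

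The members fell into patterns by cell type. Klf2, Klf7, Klf10 and Klf13 had their highest mean over the 4 mice in EC-2, Klf3 and Klf4 in Macrophage with EC-2 next, Klf9 in PT-S1-S2-1, Klf15 in PT-S3-3, Klf6 in InjuredPT-A and Klf5 in LH-DL. Taken mouse by mouse, that cluster was the highest in all 4 mice for Klf2 and Klf7 and in 3 for Klf4. It was the highest in 2 mice for Klf6, Klf10 and Klf13, and in 1 for Klf3, Klf5, Klf9 and Klf15.

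**Figure D1:**
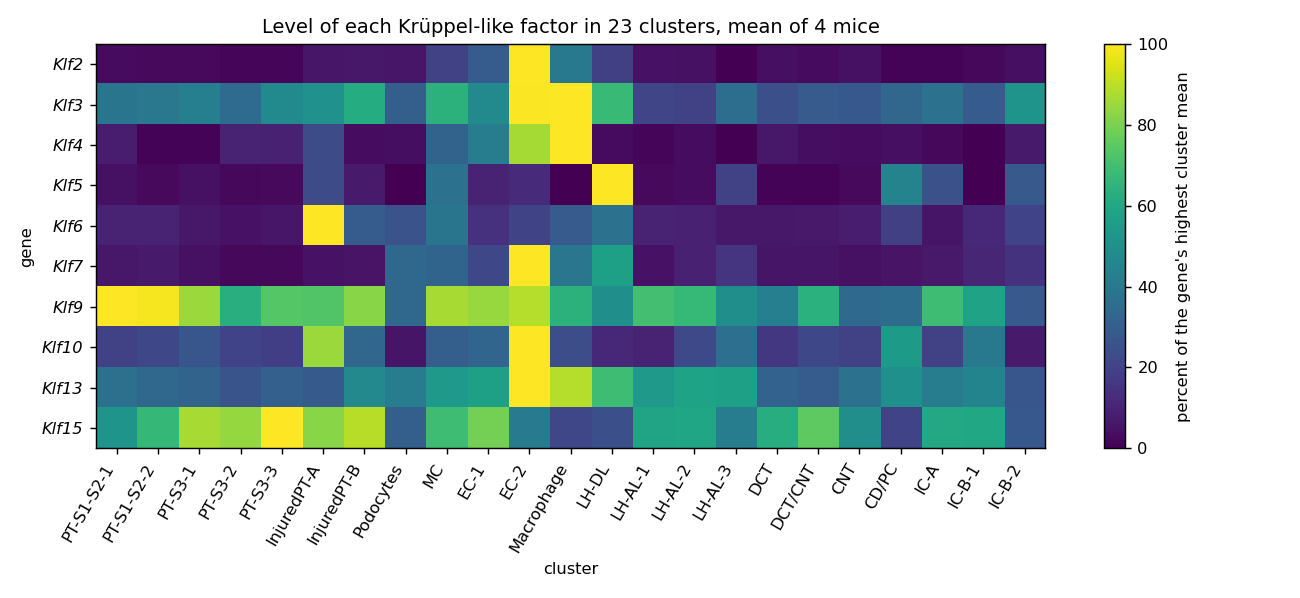
Level of each member in 23 clusters (columns), as the mean of 4 mice in percent of that gene's own highest cluster mean (colour, 0 to 100%). Klf2 and Klf7 stand out in EC-2, Klf6 in InjuredPT-A, and Klf9 is spread over most clusters, with its lowest mean in IC-B-2.

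Among the activators, Klf2, which maintains the quiescent state of endothelium under flow, was at 1.75 in EC-2 of the control mouse, 1.89 in the hKLF6OE mouse, 1.58 in the control with AAI and 1.30 in the hKLF6OE with AAI. All 4 lay above every other cluster, the next being Macrophage with a mean of 0.658 (range over 4 mice 0.325 to 0.922), and the neighbours after it, EC-1 (0.472) and MC (0.325), overlapped it. In the 5 normal proximal tubule clusters Klf2 stayed between 0 and 0.0768. Klf4, which shares endothelial functions with Klf2 and is also a factor of pluripotency, was low everywhere, at 0.496, 0.0916, 0.554 and 0.424 in Macrophage of the control, hKLF6OE, control with AAI and hKLF6OE with AAI mice and at 0.185, 0.407, 0.462 and 0.300 in EC-2. These ranges overlapped, so that no order between the clusters is given, and Klf4 was above 0 in 50 of 92 columns and reached 0.5 in 1.

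Klf7, known from axon growth in neurons, had the clearest endothelial level, at 6.08, 5.14, 6.43 and 6.90 in EC-2 in the same order of mice. No column of another cluster reached this range. LH-DL followed with 2.68 to 4.06, then Macrophage, Podocytes and MC with means of 2.40, 2.05 and 1.98, whose ranges overlapped. The normal proximal tubule clusters lay between 0.0863 and 0.598. In LH-DL both Klf7, at 2.68, and the podocyte markers noted there were lowest in the hKLF6OE mouse, while over the other 3 mice they did not keep the same order, with Klf7 highest in the control mouse (4.06) and the markers highest in the control with AAI.

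Klf5, an activator in epithelial progenitors and the collecting duct, was above 0 in 47 of 92 columns and reached 0.5 in 1, LH-DL of the hKLF6OE mouse, at 1.18. In LH-DL of the other 3 mice it was listed at 0, so that its highest cluster by mean rests on 1 column. CD/PC was the only cluster besides PT-S1-S2-1, PT-S3-1 and EC-1 in which Klf5 was above 0 in all 4 mice, at 0.117, 0.0302, 0.200 and 0.181 in the order control, hKLF6OE, control with AAI and hKLF6OE with AAI.

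Klf6, an activator induced by injury and by TGF-beta, was highest in InjuredPT-A with AAI and is described with the injury below. Without AAI its highest level in the control mouse was in Macrophage (1.27), followed by LH-DL (1.11), Podocytes (0.754) and MC (0.691), and in the hKLF6OE mouse in LH-DL (0.939). In the normal proximal tubule clusters of these mice it lay between 0.0725 and 0.280.

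**Figure D2:**
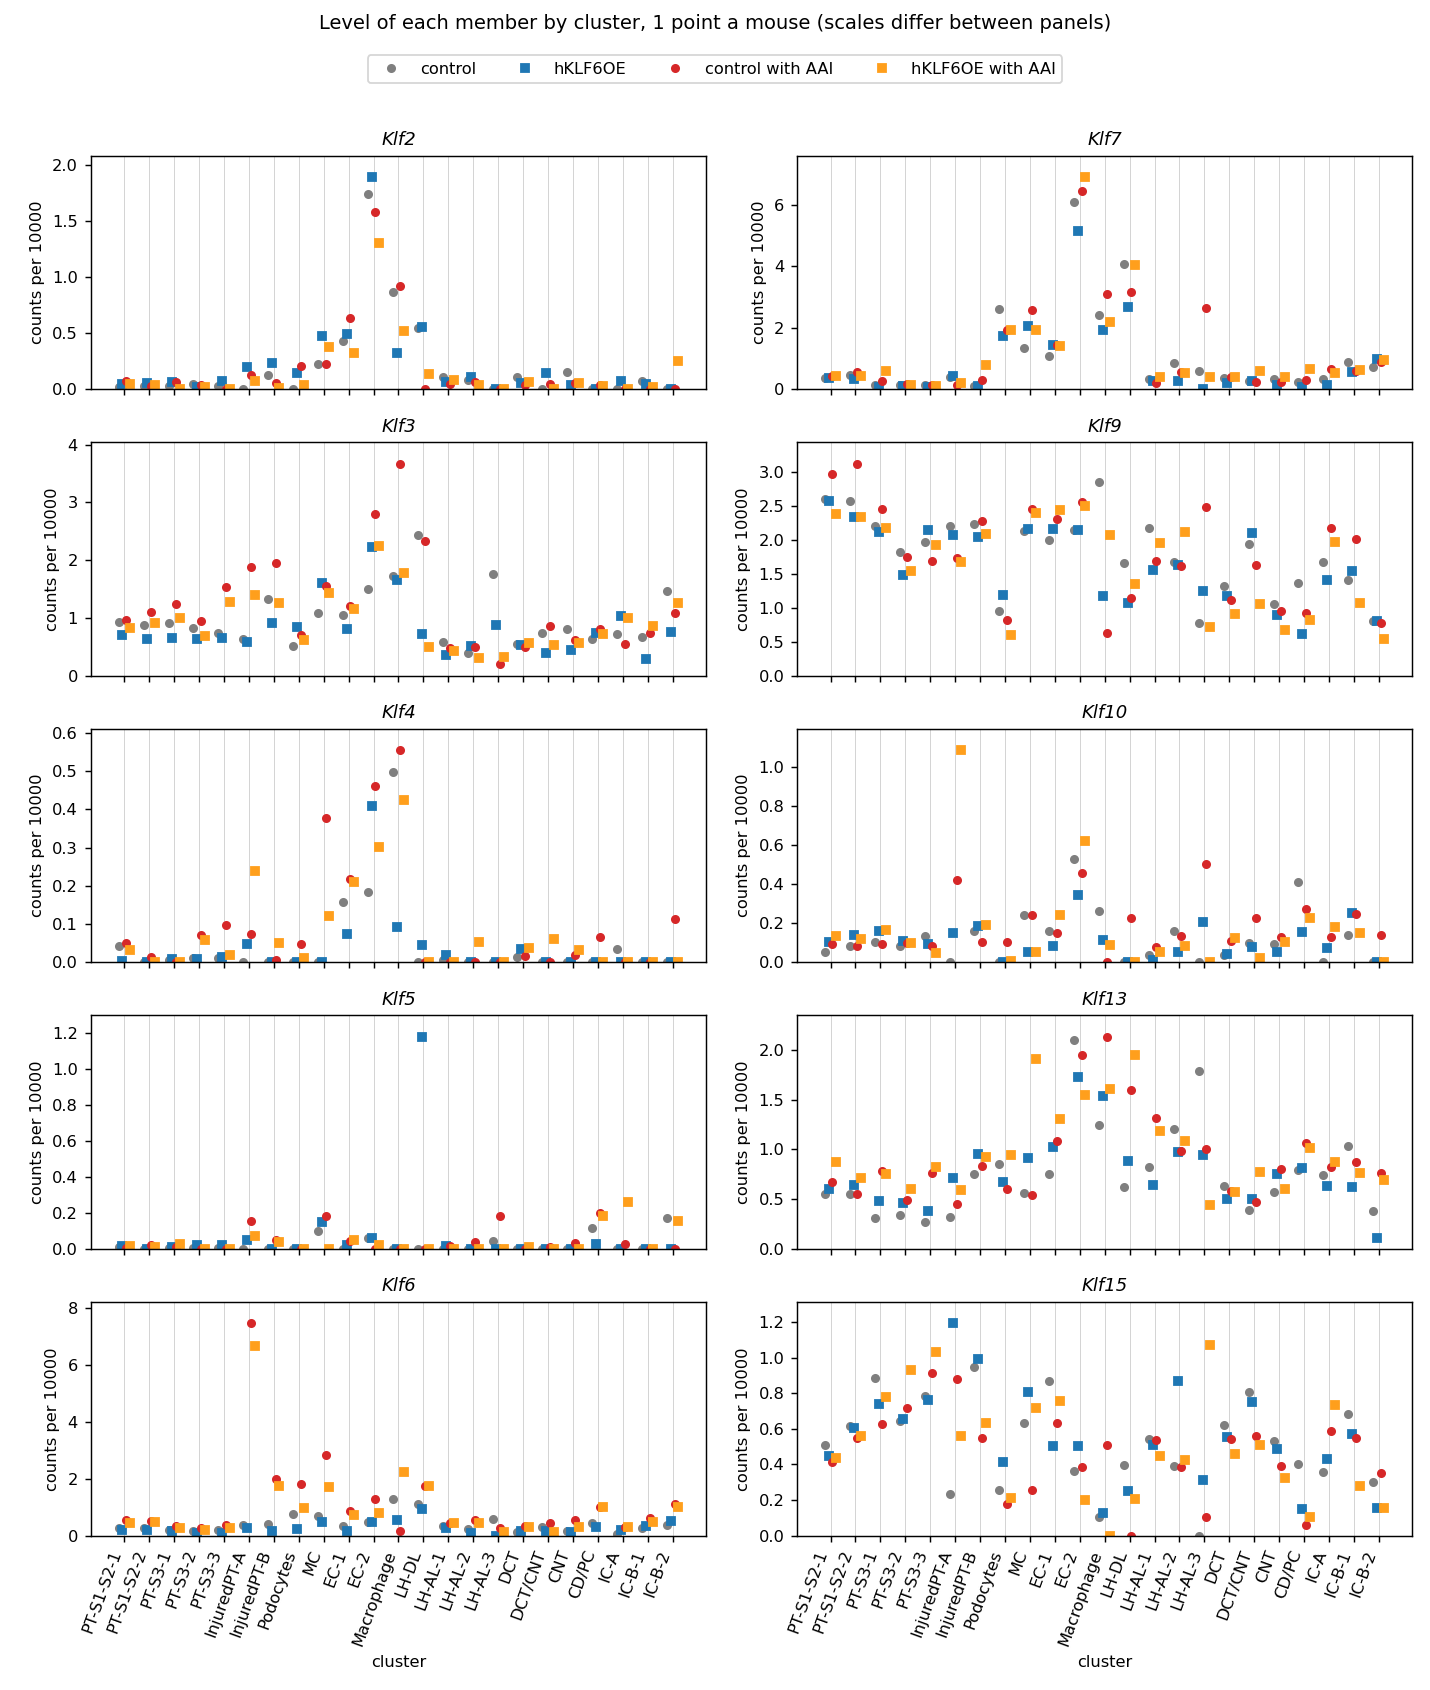
Level of each member (counts per 10000, vertical axis, with a scale of its own in each panel) in 23 clusters (horizontal axis), with 1 point for each of the 4 mice. All 4 points of Klf2 and of Klf7 in EC-2 lie above the points of every other cluster, and the AAI points of Klf6 in InjuredPT-A lie at 7.46 and 6.68.

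The CtBP-recruiting Klf3, a repressor with roles in B cells and adipocytes, was above 0 in all 92 columns. Macrophage (1.73, 1.67, 3.67 and 1.77 in the order control, hKLF6OE, control with AAI, hKLF6OE with AAI) and EC-2 (1.504, 2.23, 2.80 and 2.25) could not be put in an order, and LH-AL-2 had its lowest mean, 0.427. In LH-DL the control genotype was at 2.44 and 2.33 and the hKLF6OE genotype at 0.727 and 0.492, without and with AAI.

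Of the Sin3-recruiting members, Klf9, a glucocorticoid and thyroid hormone target, was the most evenly spread, with cluster means from 0.731 in IC-B-2 to 2.63 in PT-S1-S2-1, a value of at least 0.5 in all 92 columns, and PT-S1-S2-2 (2.59), EC-2 (2.33), MC (2.28) and PT-S3-1 (2.24) within overlapping ranges of the first. Klf10, an early TGF-beta response gene, was at 0.530, 0.345, 0.456 and 0.624 in EC-2 and reached 0.5 in 4 of 92 columns. Klf13, a regulator of chemokine expression in T lymphocytes, was at 2.10, 1.73, 1.95 and 1.55 in EC-2 and at 1.25, 1.54, 2.13 and 1.61 in Macrophage. The Klf13 ranges overlapped, and its lowest mean, 0.474, was in PT-S3-2.

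Klf15, a regulator of amino acid and glucose metabolism that is also studied in podocytes, was at 0.785, 0.760, 0.917 and 1.03 in PT-S3-3, overlapping InjuredPT-B, PT-S3-1 and PT-S3-2, and was lowest in CD/PC (mean 0.179). In Podocytes it was at 0.257, 0.411, 0.177 and 0.212, against 0.411 to 1.03 in the 20 normal proximal tubule columns.

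Within the normal proximal tubule without AAI, the early segments (mean of the 2 PT-S1-S2 clusters) were set against the late segment (mean of the 3 PT-S3 clusters). Klf9 was at 2.58 in S1-S2 and 2.00 in S3 of the control mouse and at 2.46 and 1.92 in the hKLF6OE mouse, differences of 0.26 and 0.24 on the log2 scale. It was the 1 member counted as higher of 4 that passed, and 0 were lower, where 14.7% of 3913 genes tested were higher and 12.9% lower. Klf15 lay the other way in both mice, at 0.563 against 0.772 and 0.526 against 0.719, differences of −0.18 and −0.17, short of the threshold. Klf7 was at 0.408 against 0.136 and 0.352 against 0.0887, differences of 0.31 and 0.31, but under the minimum level. Over the 20 normal proximal tubule columns of the 4 mice, the Pearson r of Klf9 with Klf15 was −0.68 and that of Klf9 with Klf7 was 0.75, while over all 92 columns they were 0.37 and 0.05. These are descriptions, since columns of a mouse share its library.

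**Figure D3:**
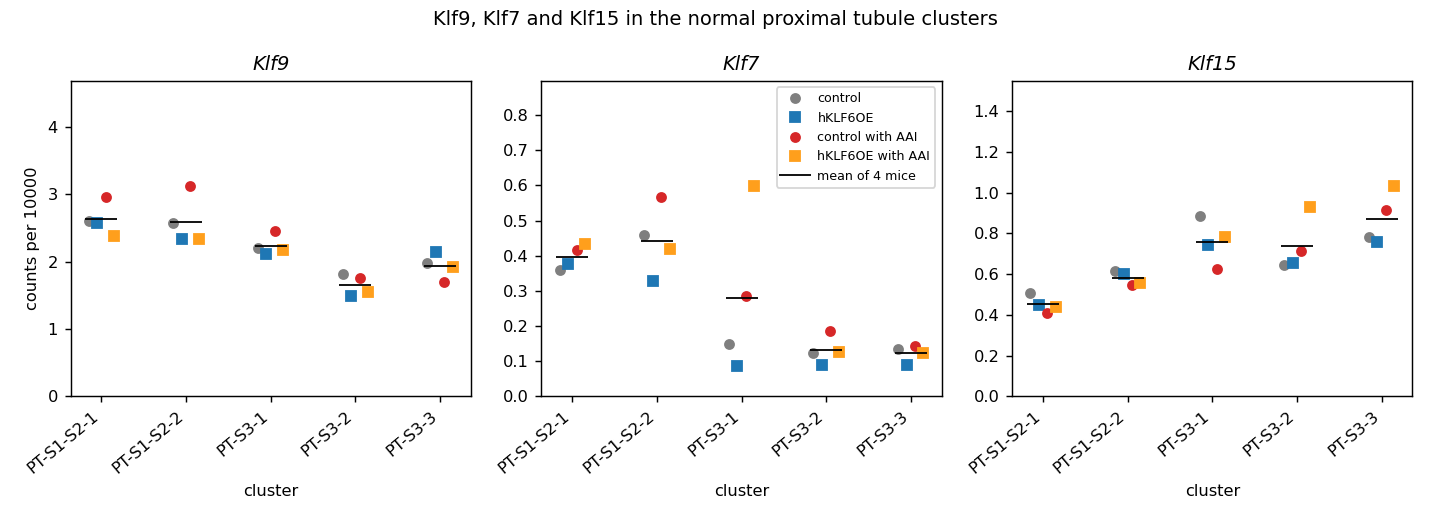
Levels of Klf9, Klf7 and Klf15 (counts per 10000) in the 5 normal proximal tubule clusters, with 1 point a mouse and a bar at the mean of 4 mice. Klf9 means go from 2.63 in PT-S1-S2-1 to 1.65 in PT-S3-2, while Klf15 means go from 0.452 in PT-S1-S2-1 to 0.874 in PT-S3-3.

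The question whether the family changed with injury was addressed first in the injured clusters of the AAI-treated mice, each set against the averaged 5 normal clusters of its own mouse. Klf6 was at 7.46 in InjuredPT-A against 0.406 in the control with AAI, and at 6.68 against 0.327 in the hKLF6OE with AAI. This was 18.4-fold and 20.4-fold, or 2.59 and 2.53 on the log2 scale. Klf3 was at 1.88 against 1.16 and at 1.39 against 0.942, differences of 0.42 and 0.30. Klf9 was lower, at 1.73 against 2.39 and at 1.67 against 2.07, differences of −0.31 and −0.20. This call depends on the segments in the reference, since Klf9 was lower in PT-S3 than in PT-S1-S2: against the 3 PT-S3 clusters alone (1.96 and 1.88) the differences were −0.12 and −0.11, under the threshold. Of the 10 members 5 passed, 2 were higher (Klf3, Klf6) and 1 was lower (Klf9). Klf6 was under the minimum in the normal proximal tubule of both mice, so it could pass only by being higher. In the same comparison 43.3% of 5008 genes tested were higher and 27% lower, so that being counted is common there.

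The median gene was itself higher in InjuredPT-A, by 0.19 and 0.15 on the log2 scale over the 5008 genes, and by 0.22 and 0.16 over the genes that passed in each mouse alone. Relative to this second median, Klf6 remained higher by 2.37 in both mice, Klf9 was lower by −0.54 and −0.37, Klf13 was then lower too (−0.41 and −0.30), and Klf3 (0.19 and 0.14) was no longer counted. By gene span, 73.7% of 1994 tested genes under 30 kb and 6.73% of 1084 over 100 kb were higher. Klf6, Klf3 and Klf9 all belong to the short class, in which 6.27% were lower, as Klf9 was. Summed endothelial markers in InjuredPT-A were 1.08 and 1.64 with AAI, against 4.73 and 4.27 in the nuclei of that cluster without AAI, and macrophage markers were 0.342 and 0.345; their part in the members' levels was not tested.

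The other members were not counted. Of those under the minimum in at least 1 mouse, Klf10 was at 0.425 in InjuredPT-A against 0.0908 in the control with AAI and at 1.09 against 0.113 in the hKLF6OE with AAI. Both mice were higher, by 4.67-fold and 9.65-fold, at levels where the number of counts is unknown. Klf7 was at 0.144 against 0.320 and at 0.209 against 0.340. Klf2, Klf4 and Klf5 were low on both sides, between 0.0725 and 0.240 in InjuredPT-A and between 0.00697 and 0.0465 in the normal proximal tubule, and each was higher in InjuredPT-A of both mice. Of those that passed, Klf13 (0.454 against 0.651, 0.597 against 0.754) differed by less than the threshold, and Klf15 lay in opposite directions in the 2 mice (0.883 against 0.644, 0.557 against 0.749).

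In InjuredPT-B, Klf6 was at 2.00 against 0.406 and at 1.75 against 0.327 (1.09 and 1.05 on the log2 scale), and Klf3 was at 1.95 against 1.16 and at 1.26 against 0.942 (0.45 and 0.22). These were the 2 members counted as higher of 5 that passed, and 0 were lower, where 23.4% of 4148 genes were higher and 13.1% lower. Here the median gene was higher by 0.11 and 0.10 over the 4148 genes, and by 0.12 and 0.12 over the genes that passed in each mouse alone. Relative to the second median Klf6 stayed counted (0.97 and 0.93) and Klf3 did not (0.33 and 0.10). Klf15 was then at −0.21 and −0.22 and counted as lower, but relative to the first median it was at −0.196 in the control with AAI, short of the threshold. Against the PT-S3 clusters alone Klf3 was also lost, at 0.19 in the hKLF6OE with AAI. Klf9, at 2.28 against 2.39 and 2.09 against 2.07, differed by −0.05 and 0.01.

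Both injured clusters share their reference, so they were also compared directly. Klf6 was higher in InjuredPT-A than in InjuredPT-B by 1.498 and 1.480 on the log2 scale, and Klf9 (−0.27 and −0.21) and Klf13 (−0.33 and −0.27) were lower, 1 higher and 2 lower of 5 members that passed. Over all 4977 genes tested, 30.6% were higher and 26.7% lower.

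**Figure D4:**
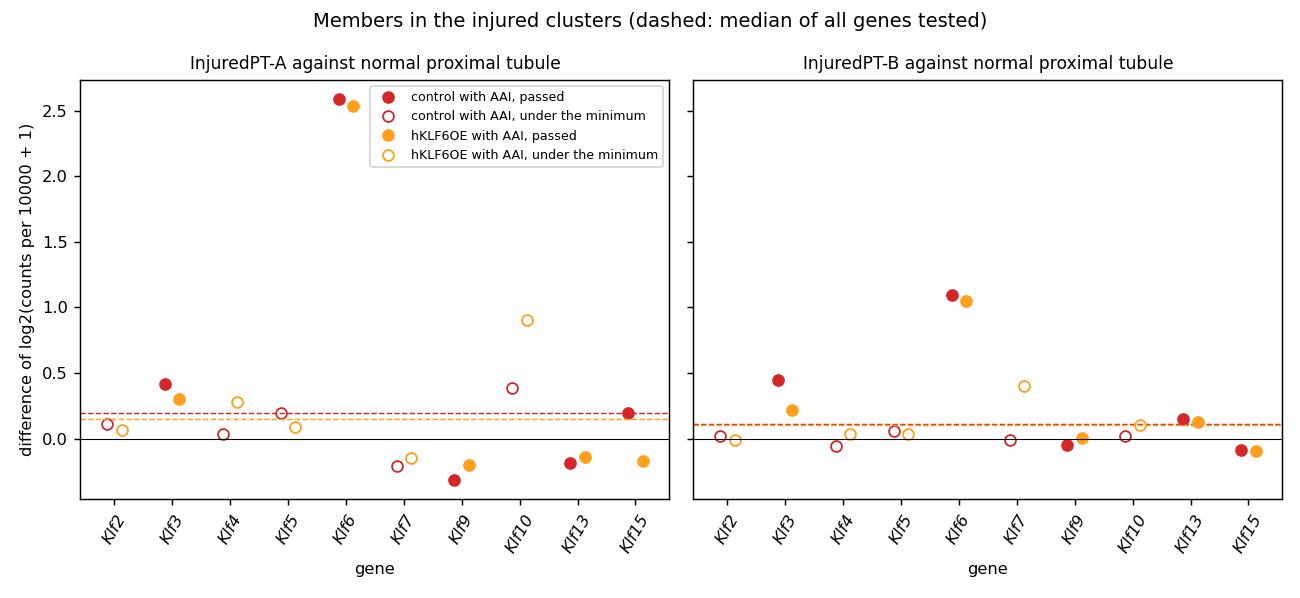
Difference of log2(counts per 10000 + 1) between an injured cluster and the normal proximal tubule of the same mouse, for each member in the control with AAI (red) and hKLF6OE with AAI (orange) mice, with open symbols for members under the minimum and dashed lines at the median of all genes tested. Klf6 lies at 2.59 and 2.53 in InjuredPT-A and at 1.09 and 1.05 in InjuredPT-B, and Klf9 lies at −0.31 and −0.20 in InjuredPT-A.

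In the nuclei still grouped as normal proximal tubule, AAI was compared with none within each genotype. Klf3 was at 0.859 without and 1.16 with AAI in the control genotype and at 0.661 and 0.942 in hKLF6OE, differences of 0.22 and 0.23. Klf13 was at 0.405 and 0.651, and at 0.515 and 0.754, differences of 0.23 and 0.21. In each genotype these were the 2 members counted as higher of 4 that passed, with 0 lower, where 11.7% of genes were higher and 23% counted in either direction in the control genotype, and 19.5% and 34.9% in hKLF6OE. Relative to the median gene, Klf3 (0.18) and Klf13 (0.17) were no longer counted in hKLF6OE, and over the PT-S1-S2 clusters alone 1 member was counted as higher in control and 0 in hKLF6OE. Mouse Klf6 was at 0.215 and 0.406 (0.21 on the log2 scale), and at 0.137 and 0.327 (0.22), and so differed as much as these genes but under the minimum level. Klf3 and Klf13 were higher in both genotypes in all 5 normal clusters, a pattern whose share over all genes was not computed. Both were counted in PT-S3-1 and PT-S3-3, where 416 of 3836 and 590 of 3954 genes tested were higher. Without AAI, Klf13 was under the minimum in the averaged normal clusters of the control genotype. In PT-S3-1 and PT-S3-3 it was under it in both genotypes, so in these comparisons it could pass only by being higher. In PT-S3-3, Klf3 was at 0.746 without and 1.54 with AAI in control and at 0.655 and 1.28 in hKLF6OE.

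Across the kidney, Klf6 was the member that moved most uniformly with AAI. It was higher with AAI than without in both genotypes in 20 of 23 clusters and lower in both in 0. Of 4272 genes with a mean level of at least 0.5, 1.12% were higher in both genotypes in as many clusters. The exceptions were Macrophage (1.27 without and 0.165 with AAI in control, 0.562 and 2.22 in hKLF6OE), LH-AL-3 (0.578 and 0.257, 0 and 0.117) and DCT/CNT (0.287 and 0.430, 0.155 and 0.132). Macrophage and LH-AL-3 are, with LH-DL and IC-B-2, the 4 clusters with the most genes at 0 by the mean of the 4 mice, and without those 4 the count was 18 of 19. The 20 include both injured clusters, whose columns without AAI had many genes at 0. Clusters of 1 mouse share its library, so they are not independent. Summed markers of injured proximal tubule were also higher with AAI in both genotypes in 20 of 23 clusters, 13 of 16 outside the proximal tubule, where they lay between 0.473 and 2.65 without and between 1.47 and 6.52 with AAI. In InjuredPT-A most of that sum was Polr2a, which was higher in both genotypes in 17 of 23 clusters. The sum of the other 5 markers was higher in 22 of 23, and Havcr1, the classic marker among them, in 7 of 23. Whether RNA from injured tubule cells enters these values was not tested.

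**Figure D5:**
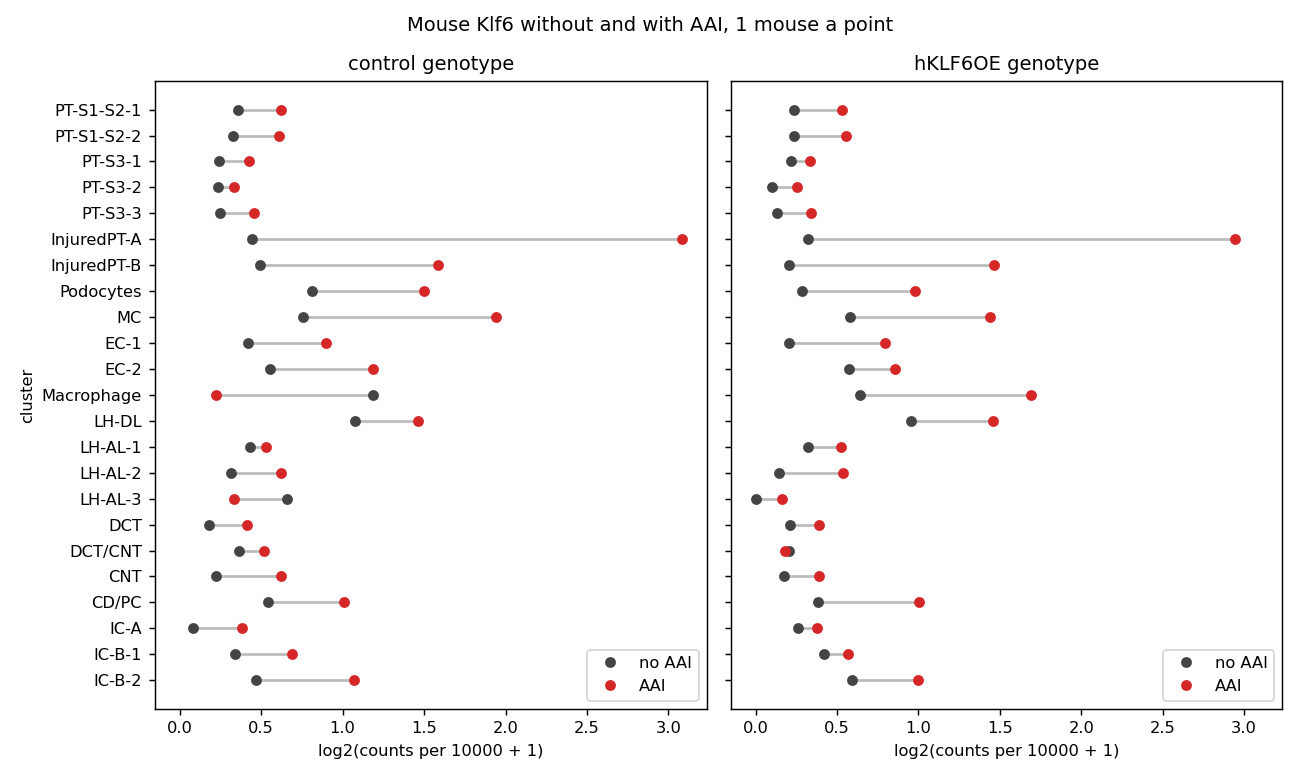
Mouse Klf6 as log2(counts per 10000 + 1) in 23 clusters, without AAI (black) and with AAI (red), in the control genotype on the left and the hKLF6OE genotype on the right, with 1 mouse a point. The red point lies right of the black one in both panels in 20 of 23 clusters, with the widest gap in InjuredPT-A. Without AAI 62.6% and 40.8% of genes were at 0 there, in control and hKLF6OE.

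Among the 16 clusters outside the proximal tubule, the 160 pairs of a member and a cluster gave 75 that passed in both genotypes, of which 13 were higher and 4 lower with AAI. That is 17.3% and 5.33% of those that passed, where 11.5% of all gene and cluster pairs were higher and 9.36% lower. Klf6 made up 7 of the 13. In MC it was at 0.691 without and 2.85 with AAI in the control genotype and at 0.491 and 1.71 in hKLF6OE. In Podocytes it was at 0.754 and 1.83, and at 0.216 and 0.974, and in CD/PC at 0.454 and 1.01, and at 0.303 and 1.00. The other clusters were EC-1, EC-2, LH-DL and IC-B-2, with differences from 0.28 to 0.63 on the log2 scale. Of the 7 clusters, only LH-DL had Klf6 above the minimum without AAI in both genotypes (1.11 and 0.939). In the rest Klf6 was under it without AAI in at least 1 genotype, so it could be counted there only as higher.

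The remaining 6 pairs that were higher with AAI fell in few clusters. In IC-A, the acid-secreting intercalated cells, Klf9 (1.68 and 2.17 in control, 1.40 and 1.97 in hKLF6OE), Klf7 (0.319 and 0.661, 0.131 and 0.540) and Klf15 (0.358 and 0.587, 0.432 and 0.732) were all counted. Klf13 was counted in LH-DL (0.623 and 1.60, 0.885 and 1.95), LH-AL-1 (0.818 and 1.31, 0.642 and 1.18) and IC-B-2 (0.380 and 0.765, 0.111 and 0.691). The 4 that were lower were Klf2 in LH-DL (0.546 and 0, 0.553 and 0.134), Klf3 (1.76 and 0.211, 0.879 and 0.329) and Klf13 (1.78 and 1.00, 0.947 and 0.443) in LH-AL-3, and Klf15 in DCT/CNT (0.805 and 0.558, 0.750 and 0.511). Of these, LH-DL, LH-AL-3 and IC-B-2 are clusters with many genes at 0. Klf7 and Klf15 in IC-A and Klf13 in IC-B-2 were under the minimum without AAI in both genotypes, so they could pass only by being higher. Klf2 in LH-DL and Klf3 in LH-AL-3 were under it with AAI in both genotypes, so they could pass only by being lower. Klf13 in LH-AL-3 was under it with AAI in hKLF6OE (0.443), so it could not be counted as higher. Klf15 was lower with AAI in both genotypes in 13 of 23 clusters, as were 10.3% of genes in as many, and in CD/PC it was at 0.402 and 0.0595, and at 0.147 and 0.107.

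In the endothelium, neither Klf2 nor Klf7 was counted with AAI, and Klf4 was under the minimum level in EC-1 and EC-2 of all 4 mice, so that it could not be counted. Klf2 in EC-2 was at 1.75 without and 1.58 with AAI in control and at 1.89 and 1.30 in hKLF6OE, and in EC-1 at 0.433 and 0.637, and at 0.492 and 0.326. Of 7 endothelial genes linked to Klf2 and Klf4, 4 passed in EC-2, 1 was higher and 1 lower, where 11.8% of 4448 genes were higher and 8.05% lower. The higher one was Tek, the angiopoietin receptor, at 11.02 and 13.98 in control and 12.08 and 14.52 in hKLF6OE, and the lower one was Kdr, the VEGF receptor, at 3.61 and 2.05, and 4.67 and 2.55. In EC-1, 2 of the 7 passed, 1 was higher (Tek) and 0 lower, where 7.43% of genes were higher and 5.37% lower.

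The hKLF6OE genotype was compared with control on the mouse genes, since only mouse Klf6 has a row and the human transgene is not listed. In the normal proximal tubule 0 of 4 members that passed were counted, without AAI (7.84% of genes higher, 9.33% lower) or with AAI (6.32% and 7.74%). The largest differences were those of Klf3, at 0.859 in control and 0.661 in hKLF6OE without AAI and at 1.16 and 0.942 with AAI (−0.16 and −0.15 on the log2 scale). Mouse Klf6 was at 0.215 and 0.137, and at 0.406 and 0.327.

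Direction over clusters showed more than the size. Mouse Klf6 was lower in hKLF6OE both without and with AAI in 17 of 23 clusters and higher in both in 0. Among the 17 were all 5 normal proximal tubule clusters and both injured clusters, whose columns without AAI had many genes at 0. At least 17 clusters were lower in both for 0.609% of 4272 genes, and Klf6 was 1 of these. It was lower in 18 of 23 without AAI and in 22 of 23 with AAI, and without the 4 clusters with the most genes at 0 the count was 15 of 19. Without AAI the median gene tested was also lower in hKLF6OE in all 23, from −0.010 in Podocytes to −0.083 in InjuredPT-A on the log2 scale. In PT-S3-1 that median was −0.030, against −0.023 for Klf6. In Podocytes, the 1 cluster in which Klf6 was counted, the levels were 0.754 in control and 0.216 in hKLF6OE without AAI, and 1.83 and 0.974 with AAI. Without AAI it passed there through control alone, so it could not be counted as higher. In InjuredPT-A the differences were −0.12 without and −0.14 with AAI, under the threshold. Each rests on 1 mouse per condition, so that genotype and mouse cannot be told apart.

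Klf3 was lower in hKLF6OE in both comparisons in 13 of 23 clusters (4.80% of genes in as many), with all 5 normal proximal tubule clusters among them, and Klf13 was higher in both in 10 (6.30% of genes), with 4 of the 5. Of the 230 pairs of a member and a cluster, 93 passed in both comparisons, 2 were higher and 8 lower, where 4.8% of gene and cluster pairs were higher and 7.03% lower. The higher ones were Klf13 in MC (0.557 and 0.918 without AAI, 0.539 and 1.91 with AAI) and Klf3 in IC-A (0.721 and 1.03, 0.547 and 0.999). Of the lower ones Klf3 gave 3, in LH-DL, InjuredPT-B and DCT/CNT. Klf3 was under the minimum in hKLF6OE in LH-DL with AAI (0.492) and in DCT/CNT without AAI (0.400), so those pairs could not be counted as higher. In InjuredPT-B it was at 1.33 and 0.911 without AAI and at 1.95 and 1.26 with AAI. The columns of InjuredPT-B without AAI had 51.3% and 55.7% of genes at 0.

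Other genes of the family and its partners were followed as lists. Of 8 further KLFs, 5 were in the table and only Klf12, a CtBP-recruiting repressor with a span of 414 kb, passed in the injured clusters. It was at 5.97 in the normal proximal tubule and 0.679 in InjuredPT-A of the control with AAI, and at 5.09 and 1.30 in the hKLF6OE with AAI, so lower by −2.05 and −1.41 on the log2 scale, and at 2.43 and 1.75 in InjuredPT-B (−1.02 and −1.15). Of genes over 100 kb, 71.7% were lower in InjuredPT-A. Of 9 Sp factors, zinc finger proteins that bind the same GC boxes, 8 were in the table and 3 passed in InjuredPT-A, all higher (Sp1, Sp2, Sp3), where 43.3% of all genes were higher. Sp2, at 0.518 against 0.162 and at 0.515 against 0.171, was under the minimum in the normal proximal tubule and could pass only by being higher. Sp1 was at 1.55 against 0.594 and at 1.01 against 0.507.

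The co-regulators gave 8 of 16 that passed in InjuredPT-A, 1 higher and 4 lower (43.3% and 27% of all genes), with medians of −0.28 and −0.23 against 0.19 and 0.15 over all genes tested. By span, 73.7% of genes under 30 kb were higher and 71.7% of those over 100 kb were lower, and the spans of the co-regulators were not compared. Sin3b, a Sin3 scaffold whose paralogue Sin3a was not counted, was at 0.907 against 0.322 and at 0.754 against 0.288. It was under the minimum in the normal proximal tubule of both mice, so it could pass only by being higher. Wwp1, a ubiquitin ligase that targets KLF proteins, was at 3.87 against 7.76 and at 3.36 against 7.65. Ncor1, Crebbp and Kat2b were the other lower ones. In InjuredPT-B 9 passed, 2 were higher (Ncor1, Ep300) and 1 lower (Wwp1), near the 23.4% and 13.1% of all genes. In the normal proximal tubule Wwp1 was higher with AAI, at 5.39 without and 7.76 with AAI in control and at 4.38 and 7.65 in hKLF6OE.

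Of the lists tied to the signals that the members respond to, the TGF-beta early response genes, a class from which Klf10 takes its older name, gave 4 of 6 higher and 0 lower in InjuredPT-A, with medians of 0.81 and 0.69, where 43.3% of all genes, and 73.7% of those under 30 kb, were higher. Smad7, the inhibitory Smad, was at 2.74 against 0.650 and at 2.49 against 0.663, and Skil, Id3 and Tgif1 were the others. Skil, Id3 and Tgif1 were under the minimum in the normal proximal tubule of both mice, so they could pass only by being higher. Immediate early genes gave 9 of 10 higher and 0 lower against the same shares, with medians of 0.61 and 1.18, led by Junb at 3.67 against 0.717 and 5.46 against 0.791. Of the 9, Fosl1, Fosl2, Ier3 and Maff were under the minimum in the normal proximal tubule of both mice, so they could pass only by being higher. In the normal proximal tubule 5 of 6 of them were higher with AAI in control and 5 of 5 in hKLF6OE (11.7% and 19.5% of all genes), led by Egr1, at 0.420 and 2.11, and 0.199 and 2.02. Without AAI only Jun reached the minimum, at 0.606 in control but 0.349 in hKLF6OE. The other genes passed through their level with AAI alone, as did Jun in hKLF6OE, so that none of these could be counted as lower. Glucocorticoid-induced genes, the class of Klf9 and Klf15, gave 5 of 7 higher and 2 lower in InjuredPT-A, where 43.3% of all genes were higher and 27% lower. Of genes under 30 kb 73.7% were higher, of those over 100 kb 71.7% were lower, and the spans of this list were not compared. Cdkn1a, also a p53 target, was at 4.83 against 0.418 and at 9.31 against 0.445. Errfi1, an inhibitor of EGF receptor signalling, was at 6.35 against 24.7 and at 7.04 against 21.98. Cdkn1a and Pdk4, both counted as higher, were under the minimum in the normal proximal tubule of both mice (Pdk4 at 0.140 and 0.0659). They could pass only by being higher. Without injury, Fkbp5 was at 1.62 in control and 4.54 in hKLF6OE in the normal proximal tubule, and with AAI at 2.97 and 2.96.

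The genes whose pattern over all 92 columns was most like each member, by Pearson r of log2(level + 1) among 4272 genes, are given for each member. For Klf2 they were Exoc3l2, Emcn and Plpp1 (r = 0.93, 0.91 and 0.91), for Klf4 Adgrl4, Flt1 and Arhgap31 (0.83, 0.81 and 0.81) and for Klf7 they included Meis2 and Tshz2 (0.90 and 0.89). Tshz2 had its highest mean in MC and the others named had theirs in EC-2. For Klf6 they were Polr2a, Zfp36l1 and Tgoln1 (0.79, 0.78 and 0.77), all highest in InjuredPT-A. The genes most like Klf9 included Pitpnc1 and Tmem106a (0.71 and 0.68), highest in PT-S1-S2 clusters, and Klf15 was most like Fah, Adhfe1 and Fpgs (0.66, 0.65 and 0.64), highest in PT-S3 clusters. Klf3 (Zeb1, 0.66), Klf13 (Fbxl7, 0.68), Klf10 (2900097C17Rik, 0.57) and Klf5 (Slc38a2, 0.46) had looser matches. The match of Klf10 was highest in InjuredPT-A and not in EC-2, and those of Klf4 were highest in EC-2 and not in Macrophage. Between members the closest were Klf2 with Klf7 (0.76) and Klf2 with Klf4 (0.75). The columns share clusters and mice, so these values describe likeness only.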

How the data were processed

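Nuclei of kidney cortex from 4 mice were profiled on the 10x platform, and per the study's methods all libraries were prepared together and sequenced on 1 lane. The authors counted reads with Cell Ranger 3.1.0 on a mouse pre-mRNA reference (mm10), which includes introns, filtered nuclei by gene number and mitochondrial share, and clustered them with Seurat 4.3. No doublet removal is mentioned for them. The deposited signal values are linear counts per 10000, averaged by the authors within each cluster of each mouse, and each of 92 columns sums to 10000. The unit was read from the values.

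Of 19632 rows, 23 with date-like names were left out. The cluster numbers were given names from the sheet order in the study's marker table and checked with 14 marker lists, and names after the larger clusters are less sure. Normal proximal tubule is the unweighted mean of 5 clusters. Differences used a pseudocount of 1, a minimum level of 0.5 and a threshold of 0.2, over all genes, and named genes are the 10 members, the largest rise and fall of 7 lists, and for each member the 3 genes of highest Pearson r, of which some are not reported here. Some further list members are named for having been counted, chosen after their values were seen. The members and lists were chosen with earlier results of these data known. The counting was run on simulated data, with genes at a level of at least 1, changes of 2-fold and small noise. That run checks the code, and does not show how reliable calls are at lower levels or near the threshold. Alternatives were a pseudocount of 0.1, no minimum, a minimum of 2, a threshold of 0.5, centring on the median, other reference clusters or mice, and leaving out a mouse or clusters, of which leaving out the 4 clusters with the most genes at 0 was added after the data were seen. Gene positions are from GENCODE on GRCm38 and promoters from RefSeq on GRCm38.p6, with no entry for Klf5 and Klf10. Python 3.11.15, numpy 2.4.6, pandas 2.3.3 and matplotlib 3.10.9 were used.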

Additional observations from a re-analysis of the deposited data

Results flagged for a closer look

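In 10 of 102 pairs of a member and a cluster that passed in both genotypes, AAI went with a higher level in one genotype and a lower level in the other, past the threshold on both sides. The share of such opposite pairs over all genes was not computed, so this count does not set the members apart from other genes. With 1 mouse per condition the difference between genotypes was not tested in any of the 10 pairs. The differences below are those of log2(level + 1) with AAI minus without.

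In the Macrophage cluster Klf6 differed by −0.96 in control and 1.04 in hKLF6OE, and Klf9 by −1.23 and 0.50. This cluster had 63.4% of genes at 0 in the control with AAI, the highest share of all columns, and its endothelial markers summed to 30.8 in that mouse against 18.1 to 18.9 in the others.

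In InjuredPT-A Klf15 differed by 0.61 in control and −0.49 in hKLF6OE. The levels without AAI, 0.235 and 1.19, come from columns with 62.6% and 40.8% of genes at 0.

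Klf9 differed in LH-AL-1 by −0.24 in control and 0.21 in hKLF6OE, in LH-AL-3 by 0.96 and −0.39, and in IC-B-1 by 0.32 and −0.30. Klf7 differed in LH-DL by −0.28 in control and 0.45 in hKLF6OE, and in LH-AL-2 by −0.25 and 0.24. Klf13 in Podocytes (−0.21 in control, 0.21 in hKLF6OE) and Klf3 in IC-B-2 (−0.24 and 0.37) were the remaining pairs.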

How the results depend on the processing

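Of 122 values recomputed under an alternative, 86 stayed within 1.5 times of the count given and 36 did not; most counts are of 0 to 2 members, so that 1 gene moves them. With a pseudocount of 0.1, 2 members were lower in InjuredPT-A, 1 was higher and 1 lower between genotypes without AAI, 2 were lower with AAI, 2 were higher and 1 lower in S1-S2 against S3, and 8 pairs outside the proximal tubule were lower. Without a minimum level, 2 were higher in InjuredPT-A against InjuredPT-B and 2 in S1-S2. With a minimum of 2, 1 was higher in InjuredPT-A, 0 in InjuredPT-B, 1 lower between the injured clusters, 0 higher with AAI in the normal proximal tubule of either genotype, and 0 pairs outside it were higher or lower. With a threshold of 0.5, 1 was higher and 0 lower in InjuredPT-A, 1 higher in InjuredPT-B, 0 lower between the injured clusters, 0 higher with AAI in either genotype, 0 in S1-S2, and 3 pairs were higher and 1 lower outside the proximal tubule. Centred on the median, 1 was higher and 2 lower in InjuredPT-A, 1 higher and 1 lower in InjuredPT-B, and 0 higher with AAI in hKLF6OE. With the 3 PT-S3 clusters as the reference, 0 were lower in InjuredPT-A and 1 was higher in InjuredPT-B. In the PT-S1-S2 clusters alone, 1 was higher with AAI in control, 0 in hKLF6OE, and 1 lower in hKLF6OE with AAI.

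With each mouse left out in turn, 6 to 9 of 10 members had the same highest cluster. Without the control mouse, Klf3 and Klf4 moved to EC-2, Klf10 to InjuredPT-A and Klf13 to Macrophage. Without the hKLF6OE mouse Klf5 moved to CD/PC and Klf9 to PT-S1-S2-2. Without the control with AAI Klf3 moved to EC-2, and without the hKLF6OE with AAI Klf15 moved to InjuredPT-B. No paired analysis was possible because each condition has 1 mouse. Levels of Klf4, Klf5 and Klf10 are limited by counts of unknown depth.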
